A study of Homo sapiens with 6 samples.

Results

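The cyclins, the cyclin-dependent kinases (CDKs), the CDC25 phosphatases and the inhibitory kinases WEE1 and PKMYT1 were taken as 43 gene symbols, of which 42 had a row in the gene table of 17579 genes. CCNA1 had no row and was not analysed here. CCND1 had a row but too few reads for a test, with expected counts of 9, 8 and 3 in the AURKA-guide libraries and 7, 9 and 10 in the control libraries, so that 41 members were tested among 13138 genes. The rule that picks the rows uses gene symbols and no measured value, but the list of symbols was drawn up with earlier results of these data known. RNA-seq was made from the human myeloma line LP-1 after infection with virus carrying either a guide RNA against AURKA, labelled Aurora A-KO (3 libraries), or a non-target guide, labelled NT Control (3 libraries). Both groups were cultured with FBS and carried a guide virus, and the labels state neither the time after infection nor whether cells were cloned or replicates were separate cultures, so p-values cover only differences among these libraries, some of which may be technical.

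Cyclins are regulatory subunits that switch on their partner kinases, and many of them are made and destroyed once in each division cycle. D cyclins with CDK4 or CDK6 phosphorylate the retinoblastoma protein in G1, E and A cyclins with CDK2 act at the start of and through S phase, and A and B cyclins with CDK1 drive entry into mitosis. WEE1 and PKMYT1 hold CDK1 inactive by phosphorylation, and CDC25 phosphatases remove those phosphates. Aurora A, the product of AURKA, acts at centrosomes and spindles and promotes activation of the same CDK1 module through PLK1. A second branch of the family, which includes CDK7, CDK8, CDK9 and CDK12 with cyclins H, C, T and K, phosphorylates RNA polymerase II or its regulators and is not known for swings through the cycle. In myeloma, deregulated expression of a D cyclin is a common feature.

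The promoters of the members are shown because several cell-cycle genes of one kind are described together below, and their shared elements are known from textbook work: the CCAAT box, bound by NF-Y, the cell cycle genes homology region (CHR), bound by the MuvB complexes, and the E2F element. RefSeq promoter windows (build GRCh38.p14, 250 bases before to 50 bases after the start) were found for 36 of the 42 members, in 58 windows. Sequences run 5' to 3' in the direction of transcription. Capitals mark the letters CCAAT of the CCAAT box, TTTGAA or else TTCGAA of the CHR, and TTTCCCGC, TTTGGCGC, TTTCGCGC or else TTTGCCGC of the E2F element, searched on both strands, and no matches overlap in the windows shown. One window is shown for each gene. CDK1 has 2 windows and CDC25C has 4 in the RefSeq table, and those shown were picked after their letters were seen. The first 5 lines are S-phase and mitotic members or their phosphatase, and CDK9 is shown as a transcriptional member for comparison. The windows are chr10:60778228-60778527 (plus strand) for CDK1, chr5:69166900-69167199 (plus) for CCNB1, chr15:59104896-59105195 (plus) for CCNB2, chr4:121823834-121824133 (minus) for CCNA2, chr5:138331755-138332054 (minus) for CDC25C and chr9:127785784-127786083 (plus) for CDK9.
CDK1: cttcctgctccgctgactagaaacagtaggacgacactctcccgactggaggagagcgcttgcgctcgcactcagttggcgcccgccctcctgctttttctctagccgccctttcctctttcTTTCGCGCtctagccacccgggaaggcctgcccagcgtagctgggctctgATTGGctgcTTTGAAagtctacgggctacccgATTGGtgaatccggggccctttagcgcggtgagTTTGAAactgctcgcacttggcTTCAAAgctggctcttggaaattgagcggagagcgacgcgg
CCNB1: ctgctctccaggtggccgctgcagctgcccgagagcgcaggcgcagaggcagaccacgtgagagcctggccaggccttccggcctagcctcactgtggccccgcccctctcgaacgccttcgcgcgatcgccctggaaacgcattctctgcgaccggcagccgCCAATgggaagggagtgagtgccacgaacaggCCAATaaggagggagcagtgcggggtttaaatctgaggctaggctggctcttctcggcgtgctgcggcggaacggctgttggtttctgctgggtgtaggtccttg
CCNB2: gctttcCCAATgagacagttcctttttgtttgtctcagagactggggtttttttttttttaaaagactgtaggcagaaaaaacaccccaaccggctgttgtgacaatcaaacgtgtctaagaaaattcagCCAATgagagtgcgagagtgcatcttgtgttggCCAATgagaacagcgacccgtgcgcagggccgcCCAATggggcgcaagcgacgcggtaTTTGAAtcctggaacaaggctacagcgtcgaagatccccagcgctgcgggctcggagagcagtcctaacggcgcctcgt
CCNA2: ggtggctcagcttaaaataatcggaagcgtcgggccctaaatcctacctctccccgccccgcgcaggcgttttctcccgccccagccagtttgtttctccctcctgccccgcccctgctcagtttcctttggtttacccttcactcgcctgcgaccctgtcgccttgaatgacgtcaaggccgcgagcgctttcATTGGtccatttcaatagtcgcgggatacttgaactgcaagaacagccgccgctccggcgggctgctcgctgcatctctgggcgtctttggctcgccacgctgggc
CDC25C: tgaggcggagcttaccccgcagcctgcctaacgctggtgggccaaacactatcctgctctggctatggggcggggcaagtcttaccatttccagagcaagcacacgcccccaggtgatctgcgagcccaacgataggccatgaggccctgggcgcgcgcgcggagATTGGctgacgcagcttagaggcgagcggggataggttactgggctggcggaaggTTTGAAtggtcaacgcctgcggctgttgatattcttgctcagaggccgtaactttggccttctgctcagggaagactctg
CDK9: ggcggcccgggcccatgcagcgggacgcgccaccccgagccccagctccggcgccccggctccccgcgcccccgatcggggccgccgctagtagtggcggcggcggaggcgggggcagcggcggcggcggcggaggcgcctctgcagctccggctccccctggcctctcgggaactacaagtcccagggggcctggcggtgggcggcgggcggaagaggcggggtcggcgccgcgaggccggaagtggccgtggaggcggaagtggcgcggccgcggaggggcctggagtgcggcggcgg

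The CDK1 window held CCAAT boxes 78 and 46 bases before the start, a spacing of 32 bases. Its CHR letters lay 69 and 13 bases before and 9 bases after the start, and its E2F letters 128 bases before. The other CDK1 window, which starts further upstream, held CCAAT 150 bases and CHR letters 161 bases before its start and E2F letters 19 bases after it. In the CCNB1 window the CCAAT boxes lay 87 and 55 bases before the start, again 32 apart. The CCNB2 window held 4 CCAAT boxes, of which the 3 nearest the start were spaced by 33 bases each, followed by CHR letters 29 bases before the start. A single CCAAT box lay 56 bases before the start of CCNA2, and CDC25C had one 85 bases before, with CHR letters 30 bases before. Of the other 3 CDC25C windows, 1 held CCAAT and CHR letters and 2 held none of the searched letters. None of the searched letters occurred in the CDK9 window. That window does not stand for all transcriptional members: a window of CDK19 held all 3 kinds of letters, and a window of CCNC held CCAAT and CHR. Among cell-cycle members, CCNE1, CDK4 and CDK6 held none of the searched letters. Counting genes with a match in any window, CCAAT was found in 9 of 12 cell-cycle members, 6 of 13 transcriptional members, 4 of 11 other members and 39.7% of all 27305 genes with a window. CHR letters were found in 5 of 12, 2 of 13, 1 of 11 and 19.5%, and E2F letters in 2 of 12, 1 of 13, 1 of 11 and 3.99%. The members without a window, CCND1, CCND2, CCNE2, CDK2, WEE1 and PKMYT1, were all cell-cycle members. These counts thus cover 12 of 18 cell-cycle members but all 13 transcriptional and 11 other members. Per window, CCAAT was found in 59.1% of 22 cell-cycle, 31.6% of 19 transcriptional and 35.3% of 17 other windows, beside 34.6% of all 35116 windows. For CHR the shares were 31.8%, 10.5% and 5.88%, beside 16.4%. For E2F they were 13.6%, 5.26% and 5.88%, beside 3.31%. Only the exact letters given above were searched, so other forms of an element were not counted. The letters CTTGAA in the CCNA2 window and TTTAAA in the CCNB1 window, close to TTTGAA, were not part of the search. A window without a match is thus not shown to lack the element. A match is a description of the letters and not evidence of binding.

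Total expected counts per library, the reads that RSEM assigns to genes, ran between 17724174 and 18523594, and values are given as CPM, counts scaled to library size, where 1 CPM stands for about 18 reads. AURKA RNA was lower but not lost under its guide, with 113, 119 and 113 CPM in the AURKA-guide libraries against 189, 192 and 195 CPM in the control libraries, a log2 fold change of -0.74 (SE 0.049, edgeR quasi-likelihood test with Benjamini-Hochberg adjustment over all genes, adjusted p = 1.55e-06). Plasma cell markers were abundant, and their summed level was 8628 to 8845 CPM in AURKA-guide and 8469 to 9322 CPM in control libraries. Of 9 listed, CD38 alone passed the test (higher), and SLAMF7 was near absent, at a mean of 0.69 CPM in AURKA-guide and 0.78 CPM in control libraries. The T and NK cell markers, nearly all of it NCAM1, summed to 18.3 to 20.8 CPM in AURKA-guide and 18.8 to 21.1 CPM in control libraries. Myeloid markers summed to 5.14 to 5.83 CPM in AURKA-guide and 5.43 to 6.11 CPM in control libraries, erythroid markers to 0.22 to 0.38 CPM in AURKA-guide and 0.16 to 0.46 CPM in control libraries, and epithelial markers to 3.74 to 4.41 CPM in AURKA-guide and 3.97 to 5.19 CPM in control libraries. Stromal and endothelial markers, mostly PECAM1, summed to 59.6 to 62.1 CPM in AURKA-guide and 65.7 to 73.5 CPM in control libraries, without overlap. PECAM1 itself had means of 55.5 CPM in AURKA-guide and 64.8 CPM in control libraries (edgeR adjusted p = 0.0825). Its groups did not overlap, as for 20.8% of all genes. The part of these markers in the differences between groups was not tested. CD3E, HBB and COL1A1 were each at most 0.43 CPM in any library.

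Set by level per transcript length (FPKM, read fragments scaled to gene length and library size, as deposited), CCNG1 was the most abundant member, with 202 ± 7.94 FPKM in AURKA-guide and 183 ± 17.3 FPKM in control libraries (SD, n = 3 each). The G1 genes followed. CCND2 had 114 ± 1.498 FPKM in AURKA-guide and 103 ± 4.79 FPKM in control libraries. CDK6 had 109.8 ± 5.60 FPKM in AURKA-guide and 98.04 ± 8.12 FPKM in control libraries. CDK4 had 108 ± 4.34 FPKM in AURKA-guide and 112 ± 3.80 FPKM in control libraries. The values of these 3 genes overlapped over the libraries, so no order among them is given. CCND3 was lower, at 19.1 ± 1.501 FPKM in AURKA-guide and 20.7 ± 1.94 FPKM in control libraries, and CCND1 was near 0, at 0.08 FPKM in AURKA-guide and 0.11 FPKM in control libraries. CCND2 made up 85.6% ± 1.14 of D cyclin FPKM in AURKA-guide and 83.2% ± 1.87 in control libraries. Among the mitotic members, CCNB1 stood at 88.3 ± 0.94 FPKM in AURKA-guide and 79.1 ± 4.13 FPKM in control libraries. CCNB2 stood at 82.8 ± 1.90 FPKM in AURKA-guide and 74.7 ± 5.13 FPKM in control libraries, and CDK1 at 69.9 ± 2.93 FPKM in AURKA-guide and 58.6 ± 3.601 FPKM in control libraries. The transcriptional kinases were lower in RNA than CDK1, between 2.87 FPKM for CDK19 and 20.0 FPKM for CDK9 in AURKA-guide libraries and between 2.61 and 20.9 FPKM for the same genes in control libraries.

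**Figure D1:**
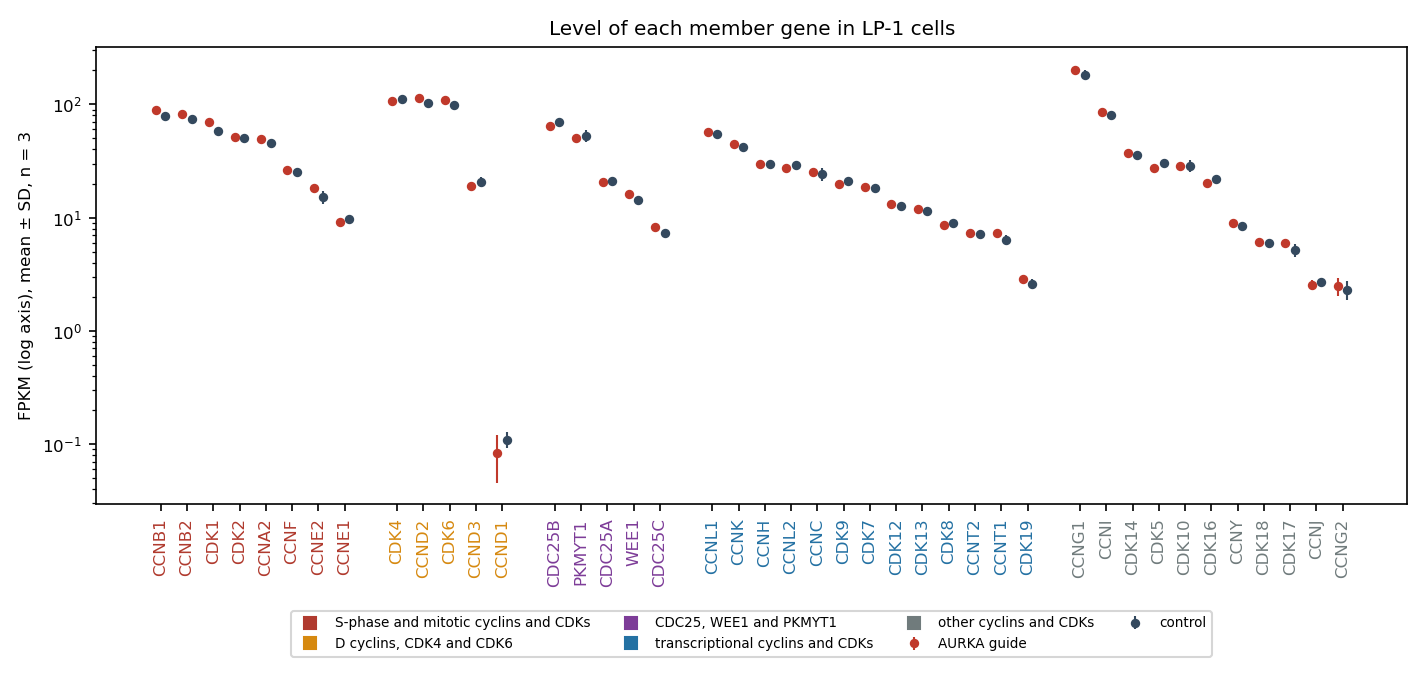
Mean FPKM ± SD (3 libraries per group, log axis) of the 42 members in AURKA-guide (red) and control (dark) libraries, ordered by level within each role; label colours give the role. CCND1 lies far below the rest at about 0.1 FPKM, and the pairs of points lie close together beside differences between genes that span from about 2 to about 200 FPKM.

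The question of the comparison was how these genes responded when AURKA was targeted. CDK1 was the only member past the adjusted threshold, and it was higher under the AURKA guide. It had 127, 139 and 133 CPM in the AURKA-guide libraries, against 109.9, 108 and 119 CPM in the control libraries. The groups did not overlap: the lowest AURKA-guide library lay above the highest control library. The log2 fold change was 0.25 (SE 0.055, 95% interval 0.13 to 0.36), an increase of 18.6%, with an edgeR adjusted p of 0.0312 over all genes. In bulk RNA, more cells in the phases that express CDK1 and more RNA per cell cannot be told apart. The 1 call among 41 members (2.44%) stood beside 267 calls among all genes (2.03%; 0.959% higher and 1.07% lower), so the share of members called was near the background. The CDK1 call rested on every library but one: its adjusted p was 0.0547, 0.226 and 0.178 without AURKA-guide replicate 1, 2 and 3, 0.213 and 0.0526 without control replicate 1 and 2, and 0.000972 without control replicate 3, while the log2 fold change stayed between 0.22 and 0.29. In the authors' deposited table of 229 genes, CDK1 was the single member listed, with a log2 fold change of 0.25 and a q-value of 0.00896.

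With CDK1 included, 12 of 41 members (29.3%) had an unadjusted edgeR p under 0.05, of which 11 were higher and 1 lower, against 16.1% of all genes (7.54% higher and 8.58% lower). Groups did not overlap for 11 members (26.8%), 9 higher and 2 lower, against 20.8% of all genes (10.5% higher and 10.2% lower). The fitted change was above 0 for 29 of 41 members, with a median of 0.06 on the log2 scale, beside a median of 0.00 and 50% above 0 over all genes. Apart from CDK1, no member passed the adjusted threshold.

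**Figure D2:**
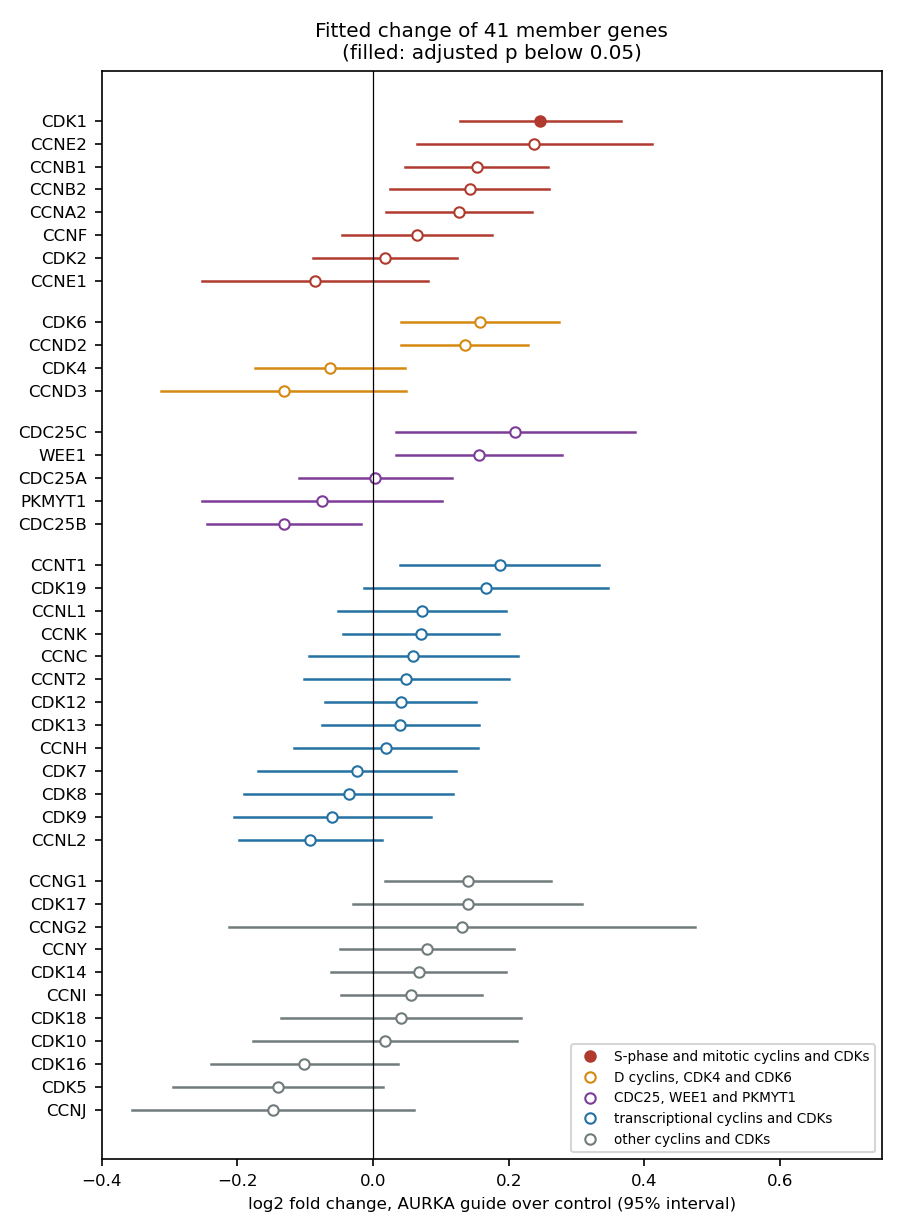
Fitted log2 fold change, AURKA guide over control, with its 95% interval for the 41 tested members, grouped by role; CDK1, the filled point, alone has an adjusted p below 0.05. Intervals that lie wholly above 0 are most frequent among the S-phase and mitotic members, and CDC25B is the one member whose interval lies wholly below 0.

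In the S-phase and mitotic group, which includes CDK1, 5 of 8 tested members had an unadjusted p under 0.05, and each of these had a higher value under the AURKA guide. CCNB1, the main mitotic cyclin, had 190.1, 194 and 189.7 CPM in the AURKA-guide libraries and 172, 165 and 179.9 CPM in the control libraries. CCNB2, the second B cyclin, had 125, 131 and 126 CPM in AURKA-guide against 113, 109.6 and 123 CPM in control libraries, and CCNA2, the A cyclin of S phase and G2, had 144, 144 and 142 CPM in AURKA-guide against 128, 127 and 138 CPM in control libraries. In each of these 3 genes every AURKA-guide library lay above every control library, and control replicate 3 was the control nearest to the AURKA-guide libraries. Their log2 fold changes were 0.15 (SE 0.049), 0.14 (SE 0.055) and 0.13 (SE 0.050), with edgeR adjusted p of 0.146, 0.220 and 0.233. CCNE2, an activator of CDK2, had 45.4, 49.2 and 51.9 CPM in AURKA-guide against 41.1, 36.7 and 46.3 CPM in control libraries, so that its groups overlapped (log2 fold change 0.24, SE 0.081, edgeR adjusted p = 0.167). Its relative CCNE1 had a log2 fold change of -0.09, CDK2 of 0.02 and CCNF, an F-box protein that does not activate a CDK, of 0.06, with edgeR adjusted p of 0.564 to 0.891.

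The balance within pairs was described as a share of FPKM, with no test. CCNE2 made up 66.4% ± 2.35 of E cyclin FPKM in AURKA-guide and 60.9% ± 1.79 in control libraries (SD, n = 3 each), with ranges of 63.9 to 68.6% and 58.9 to 62.5%. CDK1 made up 57.6% ± 1.73 of CDK1 plus CDK2 in AURKA-guide and 53.6% ± 1.14 in control libraries. Neither pair of ranges overlapped. This was not limited to cell-cycle pairs. CDK8 made up 74.7 to 75.5% of CDK8 plus CDK19 in AURKA-guide and 76.9 to 78.6% in control libraries. CCNT1 made up 49.0 to 50.6% of T cyclin FPKM in AURKA-guide and 45.6 to 48.4% in control libraries. The CDC25B share of CDC25 separated too. Ranges overlapped for the B, D, G and L cyclins, CDK4 with CDK6, and CDK12 with CDK13. CCNB1 held 51.6% ± 0.31 of B cyclin FPKM in AURKA-guide and 51.4% ± 0.47 in control libraries, a difference smaller than the spread between replicates.

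The D cyclins and their kinases had values on both sides of 0. CCND2 had 742, 762 and 754 CPM in the AURKA-guide libraries against 692, 657 and 706.9 CPM in the control libraries, and CDK6 had 1277, 1253 and 1368 CPM in AURKA-guide against 1175, 1074 and 1245 CPM in control libraries. Both had groups that did not overlap, with CDK6 in AURKA-guide replicate 2 only just above control replicate 3. Their log2 fold changes were 0.13 (SE 0.044, edgeR adjusted p = 0.149) and 0.16 (SE 0.054, edgeR adjusted p = 0.175). The other 2 had values below 0: CCND3 had 43.1, 37.1 and 37.2 CPM in AURKA-guide against 44.5, 46.7 and 37.6 CPM in control libraries (log2 fold change -0.13, SE 0.085, edgeR adjusted p = 0.464), and CDK4 had 216, 225 and 206 CPM in AURKA-guide against 222, 236 and 217 CPM in control libraries (log2 fold change -0.06, edgeR adjusted p = 0.572). Their groups overlapped. CDK6 made up 50.5% ± 2.24 of CDK4 plus CDK6 FPKM in AURKA-guide and 46.6% ± 2.91 in control libraries.

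The phosphatases and kinases that set the inhibitory phosphates on CDK1 did not share a direction. WEE1, which adds them, had 53.4, 53.1 and 56.4 CPM in the AURKA-guide libraries and 48.1, 48.6 and 49.6 CPM in the control libraries (log2 fold change 0.16, SE 0.057, edgeR adjusted p = 0.2). CDC25C, which removes them at mitosis, had 16.4, 16.2 and 15.4 CPM in AURKA-guide against 12.9, 14.8 and 13.9 CPM in control libraries (0.21, SE 0.082, edgeR adjusted p = 0.23). For both genes the AURKA-guide libraries lay above all control libraries. CDC25B, the phosphatase that acts early at centrosomes, was the one member with an unadjusted p under 0.05 and a negative value: it had 199, 198 and 189.9 CPM in the AURKA-guide libraries against 211, 229 and 204 CPM in the control libraries, with no overlap (log2 fold change -0.13, SE 0.053, edgeR adjusted p = 0.241). CDC25B, the most abundant CDC25 gene here, made up 69.1% ± 0.34 of CDC25 FPKM in AURKA-guide and 71.4% ± 1.28 in control libraries. CDC25A, the G1 and S phase phosphatase, had the smallest fitted change of the 41 members at gene level, with 74.3, 75.9 and 73.1 CPM in AURKA-guide against 72.9, 73.3 and 76.5 CPM in control libraries, and its groups overlapped. PKMYT1, the other inhibitory kinase, had 116, 104 and 100.3 CPM in AURKA-guide against 118, 124 and 95.5 CPM in control libraries, also with overlap (log2 fold change -0.08, SE 0.083, edgeR adjusted p = 0.692).

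**Figure D3:**
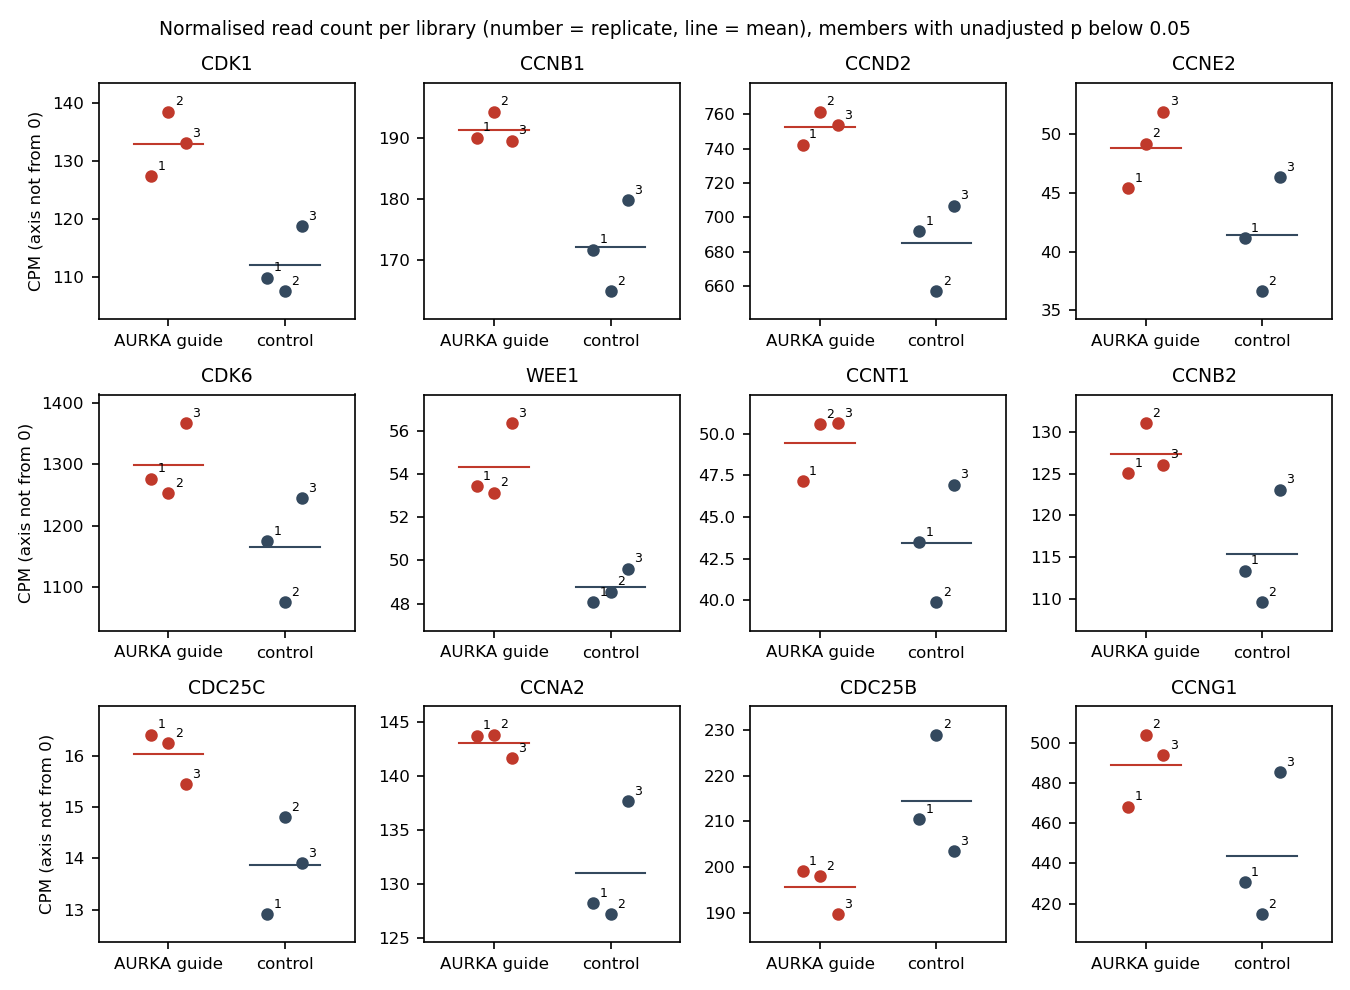
Normalised read count (CPM, axes not starting at 0) in each library of the 12 members with an unadjusted p below 0.05, AURKA-guide libraries on the left and control libraries on the right; numbers give the replicate and lines the mean. In 10 panels the groups do not overlap, and in CCNE2 and CCNG1 control replicate 3 lies above AURKA-guide replicate 1.

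Of the 13 tested members of the transcriptional branch 1 had an unadjusted p under 0.05 (7.69%), against 10 of 17 cell-cycle members (58.8%), 9 higher and 1 lower, and 16.1% of all genes. Groups did not overlap for 2 of 13 transcriptional members (15.4%) and 9 of 17 cell-cycle members (52.9%), beside 20.8% of all genes. Median log2 fold changes were 0.04 for the transcriptional and 0.13 for the cell-cycle members, and a test between both groups of genes was not made, since genes of one library share their error. The cell-cycle roles differed in their medians. The S-phase and mitotic members had 0.13, the D cyclins with CDK4 and CDK6 0.04, and CDC25, WEE1 and PKMYT1 0.0036. The median of the other members was 0.06. CCNT1, the cyclin of the elongation kinase P-TEFb, was the transcriptional member with the small p: it had 47.1, 50.6 and 50.6 CPM in the AURKA-guide libraries and 43.5, 39.9 and 46.9 CPM in the control libraries (log2 fold change 0.19, SE 0.069, edgeR adjusted p = 0.2). AURKA-guide replicate 1 lay just above control replicate 3. Its kinase partner CDK9 had 49.4, 49.7 and 53.8 CPM in AURKA-guide against 52.0, 57.8 and 49.7 CPM in control libraries (-0.06), with overlapping groups, and the related cyclin CCNT2 had a value of 0.05.

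CCNL2, a cyclin linked to splicing factors, was the transcriptional member whose groups separated downward, with 97.3, 94.3 and 95.3 CPM in the AURKA-guide libraries and 100.6, 102 and 103 CPM in the control libraries, but with a log2 fold change of -0.09 and an edgeR adjusted p of 0.372. Its relative CCNL1, the most abundant transcriptional member at 57.3 ± 2.93 FPKM in AURKA-guide and 55.0 ± 3.12 FPKM in control libraries, had a value of 0.07, and CCNL1 made up 67.4% ± 1.48 of L cyclin FPKM in AURKA-guide and 65.2% ± 0.67 in control libraries. The Mediator kinases CDK8 and CDK19 had values of -0.04 and 0.17 and their cyclin CCNC 0.06. CDK12 and CDK13, which phosphorylate the polymerase during elongation, both had 0.04, and their cyclin CCNK 0.07. CDK7 and CCNH, which belong to TFIIH and also activate the cell-cycle CDKs, had -0.02 and 0.02. The edgeR adjusted p of these 8 genes lay between 0.344 and 0.908, and the 95% interval of the difference was widest for CDK19, at -0.01 to 0.35.

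Among the 11 other members, CCNG1, a cyclin known as a p53 target, was the one with an unadjusted p under 0.05. It had 468, 504 and 494 CPM in the AURKA-guide libraries and 431, 415 and 485 CPM in the control libraries, with overlapping groups (log2 fold change 0.14, SE 0.057, edgeR adjusted p = 0.247). The remaining 10 had overlapping groups too. CDK17 had a value of 0.14, CCNG2 of 0.13, CCNY of 0.08, CDK14, a kinase that pairs with cyclin Y, of 0.07, CCNI of 0.06, CDK18 of 0.04 and CDK10 of 0.02. CDK16, another partner of cyclin Y, had 65.7, 68.6 and 63.3 CPM in AURKA-guide against 74.1, 73.4 and 64.4 CPM in control libraries (log2 fold change -0.10, SE 0.064, edgeR adjusted p = 0.461). CDK5, best known from neurons, had -0.14, and CCNJ had -0.15. The edgeR adjusted p of these 10 genes lay between 0.354 and 0.942.

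Taken library by library, the median deviation of the 8 S-phase and mitotic members from their mean over the 6 libraries was 0.05, 0.09 and 0.05 (log2) in AURKA-guide replicates 1 to 3 and -0.09, -0.12 and 0.00 in control replicates 1 to 3. Control replicate 3 thus lay between the other control libraries and the AURKA-guide libraries. The 13 transcriptional members had medians of -0.02, 0.04 and 0.05 in AURKA-guide and -0.00, -0.05 and 0.06 in control libraries, with no separation. The remaining cell-cycle roles did not separate either. For the D cyclins with CDK4 and CDK6, AURKA-guide replicate 3 had -0.0134 and control replicate 2 had -0.0131. For CDC25, WEE1 and PKMYT1 the same libraries had -0.024 and -0.010. Without control replicate 3, the S-phase and mitotic median log2 fold change was 0.17, and without control replicate 2 it was 0.11, beside 0.13 with all libraries. Without control replicate 3, edgeR called 13 members (9 higher and 4 lower; 10 cell-cycle, 1 transcriptional and 2 other), while calls among all genes came to 2034 (15.3%). The members higher in that comparison were CCNA2, CCNB1, CCNB2, CCND2, CCNE2, CCNG1, CCNT1, CDK1 and CDK6, and those lower were CCND3, CDC25B, CDK16 and PKMYT1. What sets control replicate 3 apart was not tested.

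**Figure D4:**
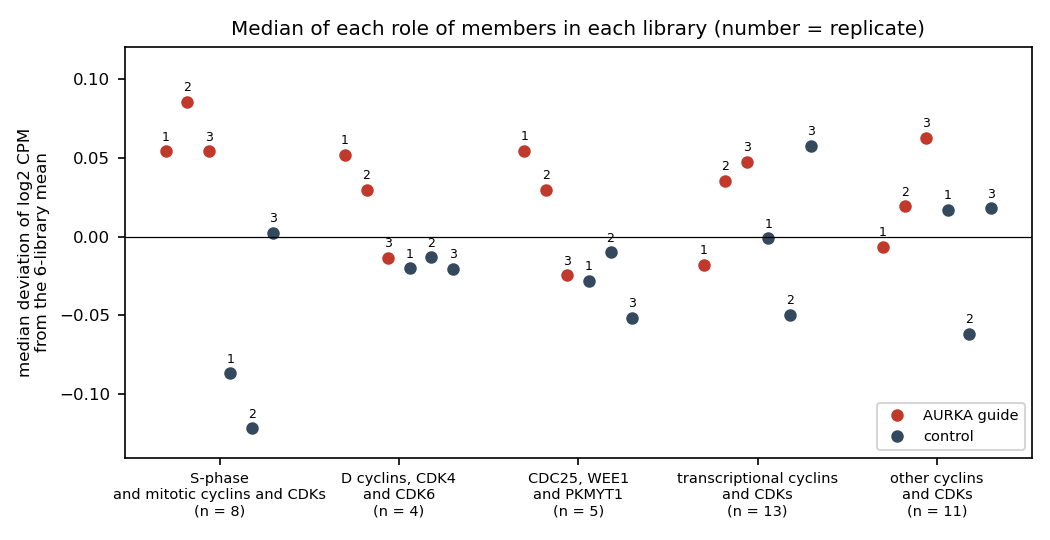
Median deviation of log2 CPM from the mean of the 6 libraries for each role of members, in each AURKA-guide (red) and control (dark) library; numbers give the replicate. The S-phase and mitotic members separate the groups, with control replicate 3 near 0, and none of the remaining roles does, the D cyclin and CDC25 roles included.

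GC content moved with the difference over all genes. Genes with transcripts below the median GC content of 48.5% had an unadjusted p under 0.05 and a higher value in 11.5% of cases and a lower value in 2.78%, whereas genes above it had 3.62% and 14.6%. All 11 members with a small p and a higher value lay below that median, CDK1 at 37.0% GC, and CDC25B lay above it at 59.3%. Within the members below the median, 9 of 10 cell-cycle members were among those higher, against 1 of 10 transcriptional and 1 of 7 other members. After a correction for GC content, the median log2 fold change was 0.10 for the cell-cycle members, -0.01 for the transcriptional members and 0.03 for the other members. Within the cell-cycle members it was 0.11 for the S-phase and mitotic role, 0.03 for the D cyclins with CDK4 and CDK6, and 0.05 for CDC25, WEE1 and PKMYT1. With this correction edgeR called CCNB1, CCND2 and CDK1 among 789 genes in all (6.01%). The log2 fold change of CDK1 was smaller after the correction, at 0.17 (edgeR adjusted p = 0.0064) beside 0.25 without it. CDC25B then had no p under 0.05, and PKMYT1 changed sign to 0.05. The part of GC content in the other differences was not tested.

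The transcript table divides each gene's reads among annotated transcripts, 266 of them for the members. No transcript of a member passed the adjusted threshold of the edgeR test for level (180 tested, lowest adjusted p = 0.432; 10 or 5.56% with an unadjusted p under 0.05) or for its share within the gene (176 tested, lowest adjusted p = 0.469; 4 or 2.27%). Over all transcripts 0.00227% and 0.0823% passed, and 3.85% and 1.39% had an unadjusted p under 0.05. DESeq2 on the same counts called 6 of the 266 member transcripts, some of which had no adjusted p, against 723 of 52439 transcripts (1.38%). Of these 6, 4 had reads in all 6 libraries and 2 were at 0 in 3 libraries. In the authors' deposited comparison, 10 of 257 member transcripts had a DESeq2 q-value under 0.05, against 1214 of 78198 transcripts. They included the same 6. The others were transcripts of CDK8, CDK13, CDK14 and CDK17, with log2 fold changes of 20.6, -21.9, -22.4 and 21.7.

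The transcript with the clearest pattern belonged to CDC25A, the gene whose total did not move. Its transcript NM_001789.2 was assigned 595, 343 and 541 reads in the AURKA-guide libraries and 122, 170.2 and 119 reads in the control libraries, or 36.2% ± 10.2 of the gene's reads in AURKA-guide against 10.2% ± 2.65 in control libraries (SD, n = 3 each). The groups did not overlap, and the log2 fold change was 1.83 (SE 0.29), with an adjusted p of 0.432 from edgeR and 4.31e-07 from DESeq2. NM_201567.1 had the opposite order, with 111, 138 and 204 reads in AURKA-guide and 315, 247 and 241 reads in control libraries (edgeR adjusted p near 1, at 0.999969). The transcript XR_001740392.2 held 33.5% ± 11.5 of the reads in AURKA-guide and 49.0% ± 4.72 in control libraries, with AURKA-guide replicate 2 inside the range of the controls. Reads shared by transcripts of one gene are split by estimate, so these numbers carry an error that the counts do not show.

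CCNF had a similar pattern between its 2 transcripts. NM_001761.2 was assigned 1378, 1614 and 1455 reads in the AURKA-guide libraries and 1192, 858 and 1007 reads in the control libraries, which is 72.0% ± 6.54 of the gene's reads in AURKA-guide against 52.0% ± 6.66 in control libraries (edgeR adjusted p = 0.522, DESeq2 adjusted p = 0.00345). NM_001323538.1 held the rest, 28.0% in AURKA-guide against 48.0% in control libraries (edgeR adjusted p = 0.885, DESeq2 adjusted p = 0.0305). For CDK1, NM_001786.4 carried 87.7% ± 1.26 of the reads in AURKA-guide and 86.5% ± 2.23 in control libraries, so the gene's higher level was seen in its main transcript (log2 fold change 0.26, edgeR adjusted p = 0.545, DESeq2 adjusted p = 0.0308). The remaining 2 DESeq2 calls were transcripts at 0 in 1 group: XM_017024749.1 of CDK12 had 55, 25.2 and 71.9 reads in AURKA-guide libraries and 0 in all control libraries, and NM_001300964.1 of CDK19 had 0 in all AURKA-guide libraries and 42.9, 5.44 and 75.1 reads in control libraries. They held means of 2.78% of CDK12 reads in AURKA-guide and 13.0% of CDK19 reads in control libraries.

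**Figure D5:**
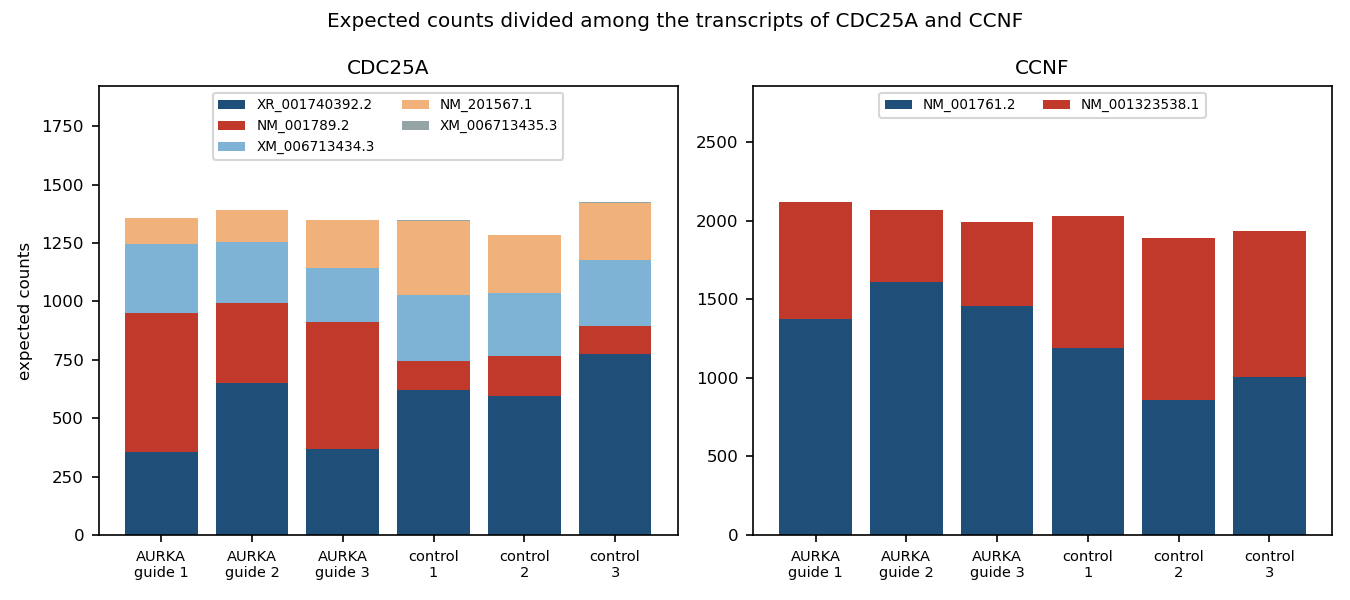
Expected counts of CDC25A (left) and CCNF (right) in each library, AURKA-guide libraries before control libraries, stacked by transcript. The part assigned to NM_001789.2 of CDC25A is 343 to 595 reads in AURKA-guide and 119 to 170.2 reads in control libraries.

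The genes around the CDKs were taken from fixed lists. Of 8 CDK inhibitors, 2 passed the adjusted threshold, both lower: CDKN1A, which encodes p21, had 11.0, 8.72 and 11.1 CPM in the AURKA-guide libraries against 18.8, 18.6 and 18.4 CPM in the control libraries (log2 fold change -0.86, SE 0.095, edgeR adjusted p = 2.04e-04). CDKN1C, which encodes p57, had 15.6, 13.6 and 14.1 CPM in AURKA-guide against 21.9, 24.7 and 18.4 CPM in control libraries (-0.58, SE 0.103, edgeR adjusted p = 0.00735). CDKN1B, which encodes p27, had a value of -0.06. The 2 of 8 called (25%) stand beside 2.03% of all genes, and the list's median was -0.03. Both genes were already known from earlier results of these data when the lists were made.

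No gene of the other lists passed the adjusted threshold. The shares with an unadjusted p under 0.05 are to be read beside 16.1% of all genes. Of 7 tested CDK partners and activating subunits, 2 (28.6%) had such a p, CABLES1 (0.14) and CKS2 (0.15), a small subunit that binds mitotic CDKs, and CDK5R1 had 0.17. Of 13 RB and E2F genes 1 (7.69%) did, E2F7 (0.23), a repressor of the E2F family, while E2F6 had 0.10 and E2F5 -0.11. Of 7 genes of the MuvB, B-MYB and FOXM1 group, which acts on late cell-cycle promoters, 1 (14.3%) did, LIN9 (0.19), and RBBP4 had 0.08 and LIN54 0.12. Of the 4 Mediator kinase module partners 1 (25%) did, MED13L (0.13), and MED13 had 0.13 and MED12L -0.14.

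Among 11 regulators of P-TEFb and members of the super elongation complex, 3 (27.3%) had an unadjusted p under 0.05, 1 higher and 2 lower, against 16.1% of all genes. LARP7, which holds the 7SK RNA that sequesters P-TEFb, had 54.8, 58.2 and 56.6 CPM in the AURKA-guide libraries against 49.0, 43.1 and 51.5 CPM in the control libraries (log2 fold change 0.24, edgeR adjusted p = 0.101). HEXIM1, the inhibitor in the same complex, had 61.6, 60.9 and 64.3 CPM in AURKA-guide against 70.7, 68.3 and 73.6 CPM in control libraries (-0.19, edgeR adjusted p = 0.119). Neither gene's groups overlapped, as for 3 of the 11 genes (27.3%) and 20.8% of all genes. MLLT3 had -0.18 (edgeR adjusted p = 0.269). The medians of these 5 lists lay between 0.06 and 0.08, near the 0.06 of all members.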

How the data were processed

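RNA-seq of 6 LP-1 libraries was analysed, 3 with a guide against AURKA and 3 with a non-target guide, prepared by the BGISEQ500 protocol per the labels. BWA, Bowtie2, RSEM and build hg19 are named in the submitters' processing notes; their versions and roles, and whether reads were stranded, were not given in the sources used here. Deposited by the authors were expected counts per gene and transcript (44.8% of gene values were not whole) and FPKM, per the file headers. The authors' deposited comparison tables hold log2 fold changes and q-values from DESeq2, per the file headers. A further 18 per-library columns were not used.

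Expected counts were rounded and tested in R 4.3.3 with edgeR 4.0.16 (filterByExpr, TMM, quasi-likelihood test, Benjamini-Hochberg adjustment over all 13138 genes, threshold 0.05), after the same steps were tested on simulated data. CPM used TMM-scaled totals. Transcript shares were tested with diffSpliceDGE over 40089 transcripts. Alternatives were DESeq2 1.42.0, limma 3.58.1 on log2(FPKM + 1), other scalings and filters, a replicate block, a GC spline (GC content of the longest coding GENCODE transcript, found for 95.9% of genes and all 42 members), and leaving out each library. Tests used the spread between libraries. The members and lists were chosen with earlier results of these data known. Outside the members, the text names in each list the 3 genes with the smallest p at a mean of at least 5 CPM and every gene past the threshold. Members are all accounted for, in full where they passed the threshold in any fit or belong to the D, A or B cyclins, CDK1, the CDC25 or WEE1 family, or were the most abundant of their role. Overlap counts and medians carry no test. Promoters came from RefSeq on GRCh38.p14, another build than hg19, and were matched by gene.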

Additional observations from a re-analysis of the deposited data

How the results depend on the processing

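Of 613 alternative values of single members, 565 kept their direction and side of the threshold, 23 changed sign, 19 newly passed and 6 no longer passed. The cause was not tested. CDK1 was the only call in the main fit, so no other member could lose a call. All 6 values that no longer passed were thus of CDK1. They came from limma and from leaving out any library but control replicate 3. Calls among all genes, 267 with all libraries, were 789 with the GC correction and 881 with it and the replicate block, and 98 to 2034 when 1 library was left out, the highest without control replicate 3. Calls among members, 1 with all libraries, were 3 with the GC correction, 5 with it and the block (CCNE2 and CDK6 added), 0 with limma on log2(FPKM + 1), and 0 to 13 with 1 library left out. Scaling and filters left CDK1 as the 1 call. Members with separate groups, 11 with all libraries, numbered 12 to 24 with 1 library left out (29.3% to 58.5% of members, against 26.9% to 46.3% of all genes). Called member transcripts were 6 with DESeq2 (an alternative chosen after seeing the data) for level, where 1.38% of all transcripts were called. For share they were 0 to 1 with 1 library left out, beside 0.0486% to 0.0749% of all transcripts. After GC correction without and with the block, CCNC had -0.0053 and -0.0050, CCNH -0.068 and -0.067, CCNT2 -0.027 and -0.025, and PKMYT1 0.052 and 0.053. With limma, CDC25A had -0.017 and CDK7 0.011. With 1 library left out, log2 fold changes ranged over -0.024 to 0.32 for CCNG2, -0.017 to 0.051 for CCNH, -0.019 to 0.095 for CCNT2, -0.011 to 0.023 for CDC25A, -0.10 to 0.13 for CDK10, -0.040 to 0.090 for CDK18, -0.0039 to 0.045 for CDK2, -0.052 to 0.0073 for CDK7, -0.074 to 0.012 for CDK8, -0.11 to 0.0056 for CDK9. Deviations of same-numbered libraries from their group means had correlations of 0.05, -0.10 and 0.10 over 13138 genes. AURKA-guide replicate 1 correlated best with control replicate 2 (0.17). With 3 libraries a group, these values cannot show whether same-numbered libraries share a batch or culture, and the labels do not state it. The replicate block called 385 genes and 2 members (CDK1 and CDK6). The role medians under GC correction and without single libraries were computed after seeing the data. With 3 libraries a group, an exact permutation test of a single gene cannot go below p = 0.1.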
